A study of Mus musculus with 6 samples.

Results

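The protein parts of the cytoplasmic ribosome are encoded by the Rpl genes of the large subunit and the Rps genes of the small subunit. Members were chosen by name alone, as the gene probes whose RefSeq symbol is Rpl or Rps followed by a number, by a number with a or x, by p0 to p2, or by a. This gave 75 genes of the 36799 on the array, 45 of the large and 30 of the small subunit, measured by 161 probes. All 75 passed the filter on dim probes and were among the 22503 genes tested. Of the 76 mouse genes with such names in RefSeq, Rpl37 had no matched probe.

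RNA came from tumor cells of MMTV-PyMT mice, in which a mammary tumor virus promoter drives the polyomavirus middle T oncogene in mammary epithelium. RANK, the receptor activator of NF-kB, is encoded by Tnfrsf11a. Late carcinoma cells that were RANK+/+ or RANK-/- were placed orthotopically in syngeneic C57BL/6 hosts, the grown tumors were dissociated, and live cells without the leukocyte protein CD45 were sorted. Both genotypes carried the PyMT oncogene, and the sorted fraction can hold host fibroblasts and endothelium beside tumor cells. The age of the mice, the pooling of tumors and the number of tumors behind the RNAs are not given in the labels, so a p-value measures only the spread between these RNAs, which may be technical. Each 2-color array compared one RNA of each genotype. The 6 arrays formed 3 pairs of RNAs with 2 technical arrays each, A and B. The RNA labeled RANK-/- was in Cy5 in pair 1 and in Cy3 in pairs 2 and 3, so pair 1 and the dye arrangement cannot be told apart. Arrays A and B had the same arrangement by the labels, whereas dye swaps are described in the methods, and a swap missing from the labels would turn the sign of the arrays it touched.

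The level of Tnfrsf11a, the gene deleted in RANK-/- cells, went against the labels. Its log2 ratio of the channel labeled RANK-/- over the channel labeled RANK+/+ was 2.03, 1.15 and 1.76 in pairs 1, 2 and 3, with a mean of 1.65 ± 0.45 (SD, n = 3) and a limma adjusted p of 1.00. Whether the probe lies in the deleted stretch is not given in the sources used here. Directions below are therefore those of the labels, and all of them turn if the labels are exchanged. The epithelial genes Epcam, Krt8 and Krt18 were well above background on all 6 arrays in both channels. Ptprc, which encodes CD45, exceeded background clearly on 5 arrays for the RNA labeled RANK-/- and on 4 for the other. The B cell gene Cd79a was so on none, S100a9 on 4 and 6 arrays, and Cd3e, Itgam and Lyz2 on all 6 in both channels, so transcripts of other leukocyte genes were measured in the sorted cells.

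A ribosome is built from ribosomal RNA and one copy of most of these proteins, and cells therefore keep the mRNAs of its proteins at high and closely matched levels. Growing and dividing cells, tumor cells among them, make many ribosomes. Most of these mRNAs begin with a terminal oligopyrimidine (TOP) tract, a C followed by a run of C and T, through which mTORC1 signaling controls their translation. Loss of single ribosomal proteins frees others, chiefly Rpl5 and Rpl11, to bind Mdm2 and stabilize p53.

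The start of the transcript is shown for a few members because the TOP tract is the sequence feature these genes are known to share. Each line holds 15 bases before and 15 bases from the RefSeq start (GRCm38.p6) on, 5′ to 3′ on the strand of the gene, with a tract of at least 5 pyrimidines that begins with C at the start in capitals. The lines give Rps15a (chr7:118116133-118116162, minus strand), Rps6 (chr4:86857353-86857382, minus strand), Rplp2 (chr7:141447636-141447665, plus strand), Rpl38 (chr11:114668565-114668594, plus strand), Rpl15 (chr14:18270972-18271001, minus strand) and Rps12 (chr10:23787195-23787224, minus strand), the last with no tract at the listed base.
Rps15a: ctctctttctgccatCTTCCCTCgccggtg
Rps6: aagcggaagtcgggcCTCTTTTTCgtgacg
Rplp2: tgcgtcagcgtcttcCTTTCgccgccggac
Rpl38: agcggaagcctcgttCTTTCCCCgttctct
Rpl15: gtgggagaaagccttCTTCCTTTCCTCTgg
Rps12: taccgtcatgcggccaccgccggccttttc

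Of the 75 members, 55 had an entry in the RefSeq promoter table. A tract of this kind began exactly at a listed start in 13 of the 55 members (23.6%) and in 3.01% of the 27025 genes in the table. It began within 10 bases of a listed start in 34 members (61.8%), against 34.4% of all genes. The search read the strand of the gene only, and a missing tract says only that these letters are not at that base. The 13 members with a tract at the start had median log2 ratios of 0.05, -0.38 and -0.48 in pairs 1, 2 and 3, and the other 42 had -0.16, -0.21 and -0.27. The median of the means was -0.23 in the former and -0.22 in the latter. Members without an entry included Rpl17, Rpl21, Rpl23a, Rpl29, Rpl3, Rpl30, Rpl32, Rpl36, Rpl7, Rpl8, Rplp1, Rps14, Rps20, Rps27a and Rps29.

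The comparison of RANK-/- with RANK+/+ tumor cells addresses which genes of the tumor cells differ with RANK. The ribosomal protein genes lay slightly below 0 as a block, and no member passed a test. The mean log2 ratio was below 0 in 73 of 75 members, with a median of -0.22, which is a ratio of 0.858. Over all tested genes the median was 0.00449, and 11022 of 22503 had a mean below 0. The lowest mean was -0.57 in Rps15a and the highest 0.15 in Rpl31. Of the members, 62 lay between -0.1 and -0.4, 4 at or below -0.4 and 9 above -0.1, and Rpl31 and Rps18 (0.09) were the ones above 0, though both were below it with median centering and Rpl31 also as the mean over its probes. The count of members with a mean below 0 was 57 with the processed signals of the scanner software and 68 in the normalized table of the authors. It was 75 with median centering, where the median over all genes was itself -0.14. Fewer cells of a type and less RNA per cell cannot be told apart in such sorted bulk samples.

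The pairs differed in how far the block lay from 0. The members' median was -0.04, then -0.20 and -0.34 in the 3 pairs in turn, and the medians of all genes were 0.02, -0.01 and 0.00116. In pair 1, 42 of 75 members (56%) were below 0, in pair 2 63 (84%) and in pair 3 68 (90.7%). Of all tested genes, 48.0%, 51.7% and 49.8% were below 0, so the share of the members in pair 1 was near the background. The middle 50% of the members spanned 0.438, 0.462 and 0.398, a width like that of all genes (0.502, 0.421 and 0.548). A difference of at least 2-fold occurred once, in Rps14 in pair 1.

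**Figure D1:**
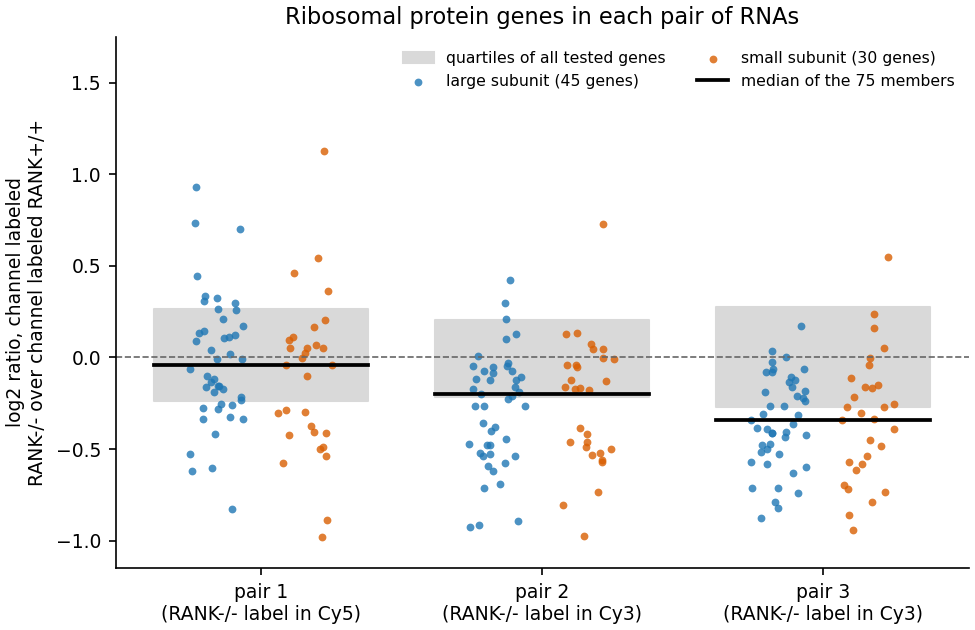
Log2 ratio of the channel labeled RANK-/- over the channel labeled RANK+/+ for each of the 75 members (points, by subunit) in the 3 pairs, with the members' median (black line) and the quartiles of all tested genes (gray). The black line moves from -0.04 to -0.20 and -0.34, and points lie on both sides of 0 in every pair.

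With limma, 0 of 75 members passed an adjusted p of 0.05, and 0% of all genes did. At an unadjusted p under 0.05, 2 members passed (2.67%), against 2.88% of all genes, so their share was near the background. The rank product, which ranks genes within each pair, called 0 members at a proportion of false positives under 0.05 and 0.0311% of all genes. With 3 pairs, an exact sign-flip test of a single gene cannot go below p = 0.25. In all 3 pairs 29 members (38.7%) were below 0, against 9.65% of all genes, and 0 members were above 0, against 9.95%. With the processed signals 13 members were below and 3 above 0 in all pairs. Without pair 1, 61 members (81.3%) were below 0 in both pairs left, where the share of all genes was also higher because fewer pairs had to share the sign (24.99%).

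Large and small subunit genes lay close together. Their medians were -0.06 and -0.04 in pair 1, -0.23 and -0.17 in pair 2, then -0.36 and -0.32 in the last pair. Of the large subunit genes, 18 of 45 were below 0 in all pairs, and of the small subunit genes, 11 of 30. The difference between subunits was not tested.

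Rps12 had nearly the same ratio everywhere, -0.50, -0.52 and -0.54, with the smallest spread of all members (SD 0.0207) and an unadjusted limma p of 0.0157 (adjusted p 1.00). Its mean of -0.52 is a ratio of 0.698. The other Rps12 probe gave -0.41, -0.25 and -0.44. Both probes were thus below 0 in every pair.

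Rps15a, a small subunit protein, had the lowest mean, -0.57 ± 0.41 (SD, n = 3), with -0.98, -0.16 and -0.58 in the 3 pairs and an unadjusted limma p of 0.0477. A further Rps15a probe gave -1.23, 0.16 and -0.40, so that pair 2 lay on the other side of 0. A dim probe of the gene had a mean of 0.00189. The low mean of Rps15a thus held in pairs 1 and 3 for its bright probes and not for the dim one.

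Rps20 gave -0.54, -0.01 and -0.62, with pair 2 near 0. Rpsa, which is both a small subunit protein and the precursor of the laminin receptor, gave -0.38, -0.04 and -0.72. Neither was alike in all pairs as Rps12 was. The other Rpsa probes had means of -0.21, -0.33 and -0.38, and each was above 0 in pair 2, by 0.28, 0.48 and 0.37.

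**Figure D2:**
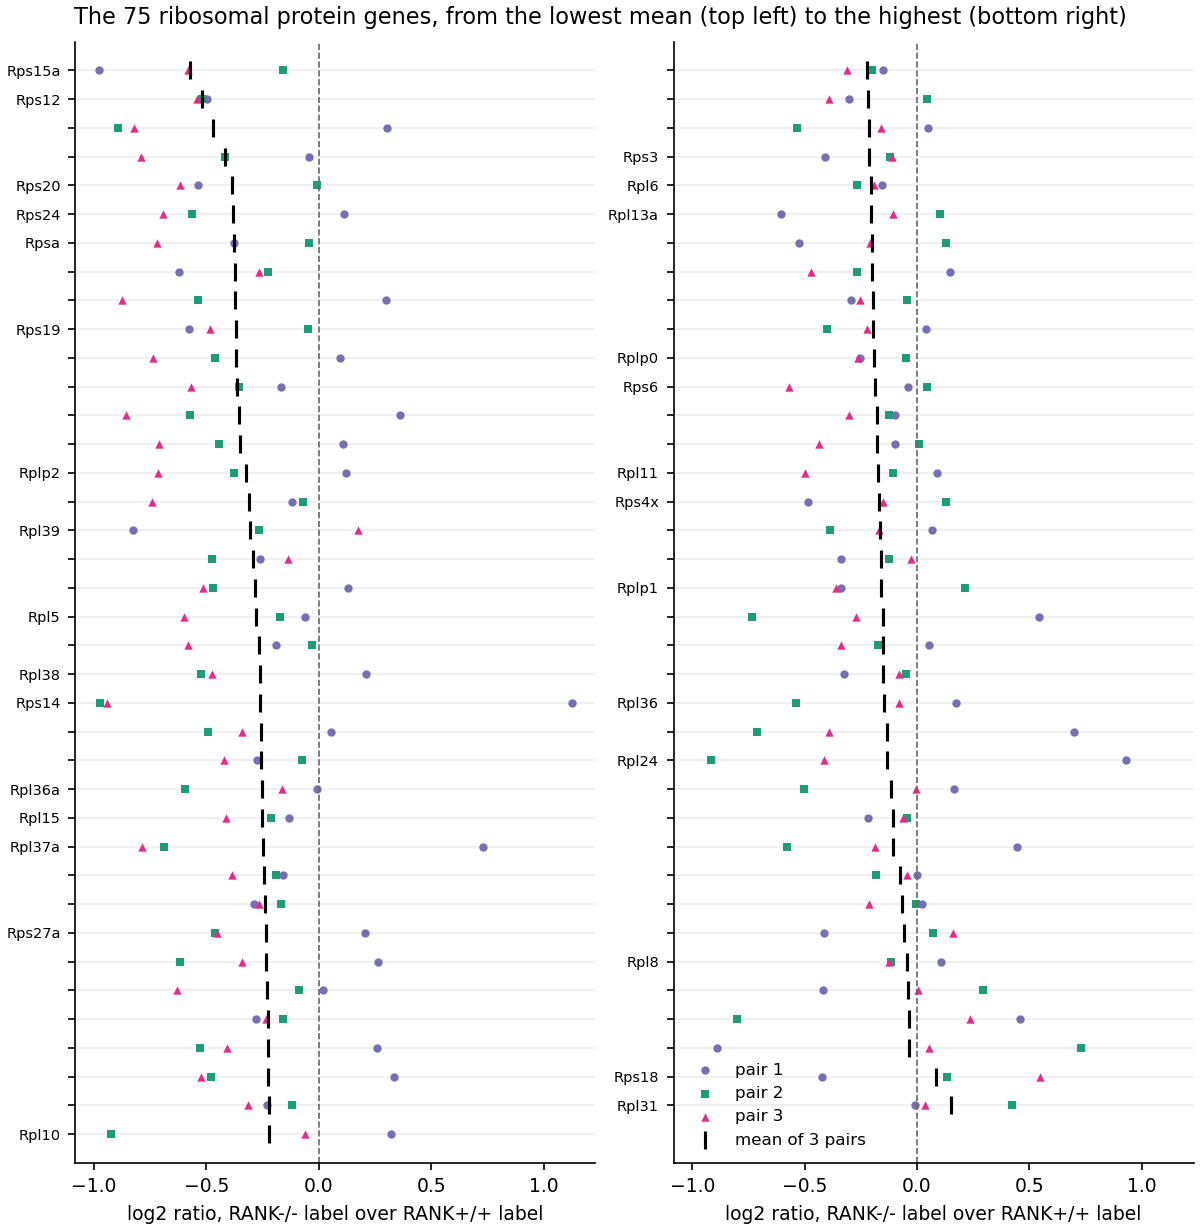
Log2 ratio of the channel labeled RANK-/- over the channel labeled RANK+/+ in each pair (symbols) and its mean (black bar) for all 75 members, sorted by the mean, with names at some of those described in the text. Nearly all bars lie left of 0, while for many members the pair 1 symbol lies right of 0 and those of pairs 2 and 3 left of it.

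The stalk of the large subunit, which recruits translation factors, is formed by Rplp0 and the acidic proteins Rplp1 and Rplp2. Rplp0 was below 0 in all pairs by its brightest probe, at -0.25, -0.05 and -0.26, while its other probes gave -0.66, 0.21 and 0.06, and -1.02, 0.17 and 0.10. Rplp1 gave -0.34, 0.21 and -0.36, and Rplp2 gave 0.12, -0.38 and -0.71. Rplp2 alone had pair 1 above 0. The means of the 3 genes were -0.19, -0.16 and -0.32.

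Rpl5 and Rpl11 assemble with the 5S ribosomal RNA and bind Mdm2 when free. Rpl5 gave -0.06, -0.17 and -0.60 and was below 0 in all pairs. Rpl11 gave 0.09, -0.11 and -0.50 by its brightest probe. Its other probes were below 0 in all pairs, at -0.21, -0.05 and -0.28, and -0.27, -0.05 and -0.33. Both genes were lowest in pair 3 by every probe, and the means by the brightest probe, -0.28 ± 0.28 and -0.17 ± 0.30 (SD, n = 3), did not exceed their spread.

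Rps6 is the substrate of the S6 kinases downstream of mTORC1. Its ratios of -0.04, 0.04 and -0.57 put it away from 0 only in pair 3, and its mean was -0.19 ± 0.33 (SD, n = 3). Its other probes gave -0.63, 0.39 and -0.28, and -0.07, -0.17 and -0.22.

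Rps19 and Rps14 are lost or mutated in bone marrow failure. Rps19 was below 0 in all pairs, at -0.58, -0.05 and -0.48. Rps14 had the largest spread of all members (SD 1.20), at 1.13, -0.97 and -0.94, a ratio of 2.18 in pair 1 and of 0.509 and 0.521 in the others. The mean of Rps14, -0.26, thus describes none of its pairs.

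Rpl24 and Rpl37a, both of the large subunit, followed Rps14 in spread. Rpl24 gave 0.93, -0.92 and -0.41, and Rpl37a gave 0.73, -0.69 and -0.79. By the brightest probe of each gene pair 1 was above 0 and the other pairs were below it. The other Rpl24 probe gave 0.31, -0.18 and 0.19, so that pair 3 too was above 0.

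Members known for work outside the ribosome lay within the range of the rest. Rpl13a, which silences translation of inflammatory mRNAs, gave -0.61, 0.10 and -0.11. Rps3, which also takes part in DNA repair, was below 0 in all pairs, at -0.41, -0.12 and -0.11. Rpl38, which favors translation of Hox mRNAs, gave 0.21, -0.52 and -0.48. Rps27a, made as a fusion with ubiquitin, gave 0.20, -0.46 and -0.45 by its brightest probe and -0.13, -0.24 and -0.31 by the next. Both probes of Rpl38 had pair 1 above 0 and the other pairs below, as in Rps14, while in Rps27a this held for the brightest probe alone.

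Of the 4 X-linked members, 1 was below 0 in all pairs. This was Rpl36a, at -0.01, -0.59 and -0.16. Rpl10, which is needed late in large subunit assembly, gave 0.32, -0.92 and -0.06. Rps4x gave -0.49, 0.13 and -0.15. Rpl39 gave -0.83, -0.27 and 0.17, and its pair 1 value rests on array A because the spot on array B was an outlier. No pattern over the pairs was common to the 4 genes.

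The spread between pairs was much larger than that between technical arrays. The median SD between the 3 pairs was 0.315 for the members and 0.329 for all genes, and the median technical SD between arrays A and B was 0.0464 and 0.0633. The SD exceeded the size of the mean in 51 of 75 members. Across the 75 members, the technical arrays of the same pair had r = 0.965, 0.980 and 0.977.

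The order of the members turned between pairs of opposite dye arrangement. Across the 75 members, the ratios of pair 1 and pair 2 correlated with r = -0.754, those of pairs 1 and 3 with r = -0.337, and those of pairs 2 and 3 with r = 0.332. Expressed as Cy5 over Cy3, whatever the label, the same values correlated with r = 0.754, 0.337 and 0.332, while those of all genes gave 0.278, -0.178 and -0.0792. Genes are not independent replicates, the points share arrays and signal range, and the dye view was taken after seeing the data. Cy5 was the brighter channel in all 3 pairs for 32 members (42.7%), against 15.3% of all genes, and Cy3 for 5 members (6.67%), against 13.5%. Most of all genes were dimmer than the members. Of the 1105 other tested genes at or above the dimmest member, Cy5 was the brighter channel in all 3 pairs for 259. The count of 32 was 14 with the processed signals, 9 in the table of the authors and 52 with median centering. With the normalization unchanged but the mean over the probes of a gene in place of the brightest probe, it was 18. The share of all genes under these settings is not given, so these counts cannot be set against a background. With median centering, all genes themselves had medians by label of 0.13, -0.19 and -0.39 in the 3 pairs. Rps14, Rpl24 and Rpl37a were among the 32, and Rps12 was in neither group.

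All 75 members were brighter than the 90th percentile of the tested genes, with mean log2 intensities from 14.4 to 17.5 against a 90th percentile of 13.1. The ratio of Cy5 over Cy3, averaged with equal weight for both dye orientations, went with brightness, at r = 0.661 (Spearman's rho 0.654) across the 75 members. It had a median of 0.32 in the 38 brighter members, of which 25 had Cy5 above Cy3 in all pairs, and of -0.01 in the 37 dimmer members, of which 7 did. The mean ratio of the channels by label went with brightness only at r = -0.185. Of the brighter members 10, and of the dimmer 19, were below 0 by label in all pairs. With a dye term in the fit, the members' median was -0.19, against -0.22 without it. Pair 1 and the dye arrangement cannot be told apart, and the part of the dye in the members' ratios was not tested.

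**Figure D3:**
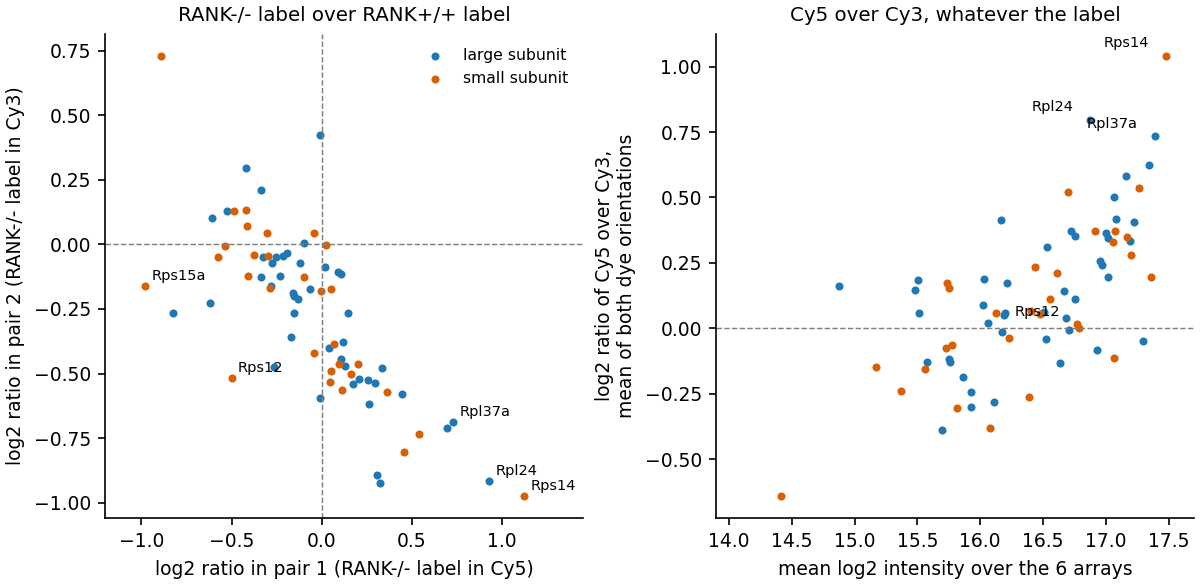
Left, log2 ratios by label of the 75 members in pair 1 against pair 2, whose dyes were opposite. Right, log2 ratio of Cy5 over Cy3 (mean of both dye orientations) against mean log2 intensity. The left points run from upper left to lower right (r = -0.754) with Rps12 and Rps15a at the lower left edge, and the right points rise with intensity (r = 0.661).

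There were 1105 other tested genes at or above the dimmest member, so members made up 6.36% of that range. Their medians were 0.03, -0.12 and -0.12 in the 3 pairs, above the median of all genes in pair 1 and below it in pairs 2 and 3, against -0.04, -0.20 and -0.34 for the members. Of these others, 15.2% were below 0 in all pairs.

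How far the block lay from 0 differed between normalizations, which differ in several steps at once. With each array centered on its median in place of loess, the members' medians were 0.22, -0.83 and -1.44, and those of all genes 0.13, -0.19 and -0.39. With the processed signals of the scanner software they were -0.07, -0.06 and -0.08, and in the normalized table of the authors, whose direction was set by its correlation with the scanner ratios, -0.26, -0.01 and -0.23. The median of the means was below 0 under each, at -0.72, -0.09 and -0.17. With loess fitted without the members it was -0.25. The correlation of pairs 1 and 2 by label was negative in all of these, from -0.604 to -0.774.

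**Figure D4:**
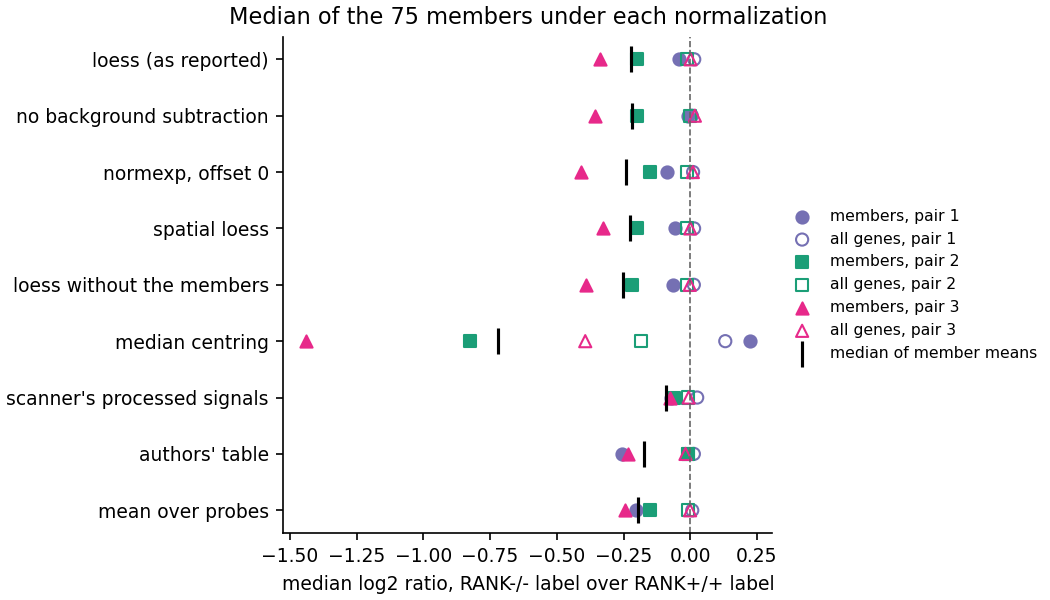
Median log2 ratio by label in each pair under each normalization, for the 75 members (filled symbols) and all tested genes (open symbols), with the median of the members' means (black bar). The black bar lies left of 0 throughout, from -0.72 with median centering to -0.09 with the processed signals, and the order of the pairs changes.

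Members with several probes gave a second view. Besides the brightest probe, which stood for each gene, 84 probes of 49 members passed the filter. Their medians were -0.28, -0.06 and -0.16 in the 3 pairs, 27 of the 84 were below 0 in all pairs, and 0 were above 0. By the brightest probe, 9.65% of all tested genes were below and 9.95% above 0 in all pairs. The share over the other probes of all genes is not given. Pair 1 was thus the lowest for these probes and the nearest to 0 for the brightest ones. Within a gene, the means of the probes spanned a median of 0.108.

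In 9 members, probes of the same gene had means on both sides of 0. These were Rpl15, Rpl24, Rpl31, Rpl36, Rpl6, Rpl8, Rps15a, Rps24 and Rps27a. The brightest probe of Rpl31, a protein near the exit tunnel, gave -0.01, 0.42 and 0.04, and its other probe -0.50, 0.30 and -0.31. Rpl8 gave 0.11, -0.12 and -0.12 with the brightest probe and -0.14, 0.11 and 0.22 with the other. Rps24 gave 0.11, -0.56 and -0.70, while its probes for other transcripts had means of -0.09 and 0.06. The direction of the mean in Rpl31 and Rpl8 therefore depended on the probe. Rpl15, Rpl6 and Rps27a had a dim probe near 0 beside bright ones below it, with brightest-probe means of -0.25, -0.20 and -0.24. For Rpl36 the brightest probe had a mean of -0.15 and the dimmest of 0.01. Ribosomal protein genes have many processed pseudogenes, and signal from such copies and from the gene cannot be told apart here.

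Ribosomal proteins outside the name pattern lay on both sides of 0. Of 13 such genes listed, 11 were on the array and 10 tested. Their medians were 0.08, -0.11 and 0.06, with 2 above 0 and 1 below 0 in all pairs (against 9.95% and 9.65% of all tested genes). Those above were Rps4l (0.25, 0.29 and 0.80) and Rpl39l (0.07, 0.02 and 0.93), paralogs of Rps4x and Rpl39, and the one below was Rpl7l1 (-0.34, -0.08 and -0.09). The Rps4l probe was matched to a transcript that RefSeq lists as non-coding. Rps3a1, a regular small subunit protein, gave 0.20, -0.01 and 0.09. Fau, made as a fusion with a ubiquitin-like protein, gave 0.04, -0.42 and 0.20. Rpl36al had a mean of -0.22, Rpl3l of 0.15 and Rps27l of 0.08. Rpl22l1 had values in pairs 1 and 2 alone (-0.78 and -0.23).

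The 3 lists of other genes of protein synthesis had medians above 0 in pair 2 alone. The 77 tested mitochondrial ribosomal proteins, which translate mRNAs inside mitochondria, had medians of -0.28, 0.08 and -0.10, with 12 below and 4 above 0 in all pairs. The 21 translation factors and other mRNAs with TOP tracts had medians of -0.18, 0.01 and -0.19, with 5 below 0 in all pairs. These were Npm1, a nucleolar chaperone (mean -0.58), Rack1, a small subunit scaffold (-0.41), the elongation factor Eef1a1 (-0.23), and Btf3 (-0.23) and Naca (-0.12), which bind nascent chains. The 25 ribosome biogenesis genes had medians of -0.40, 0.21 and -0.42, with 3 below 0 in all pairs, Pes1 (mean -0.74), Nob1 (-0.38) and Wdr43 (-0.21). Of all tested genes, 9.65% were below and 9.95% above 0 in all pairs, and the counts of these lists were not tested against those shares. limma called 0 genes of these lists. None of these 3 lists had its median below 0 in every pair, as the cytoplasmic ribosomal proteins did.

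Marker genes differed between the pairs too. The 8 proliferation genes, such as Mki67 and Top2a, had medians of -0.78, 0.70 and -1.01, so that pair 2 was above 0, where the ribosomal protein genes had -0.20. The 4 fibroblast genes had medians of 0.38, 0.57 and 2.16, and were highest in pair 3, where the members were lowest. Of these 4 genes, 3 were above 0 in all pairs, against 9.95% of all tested genes. The 5 luminal genes had 0.27, -0.67 and 0.52, and the 5 of 6 leukocyte genes that were tested had -0.11, 0.10 and 0.03. Genes within both lists ran apart, so these medians do not stand for each gene. Epcam gave 1.04, -0.67 and 0.52, Krt8 -0.41, -0.55 and 2.08, and Krt19 -1.22, -3.95 and 0.03. In pair 1, S100a9 was -4.12 and Ptprc -0.93, while Itgam was 0.49. The part of cell makeup and of division in the members' ratios was not tested.

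**Figure D5:**
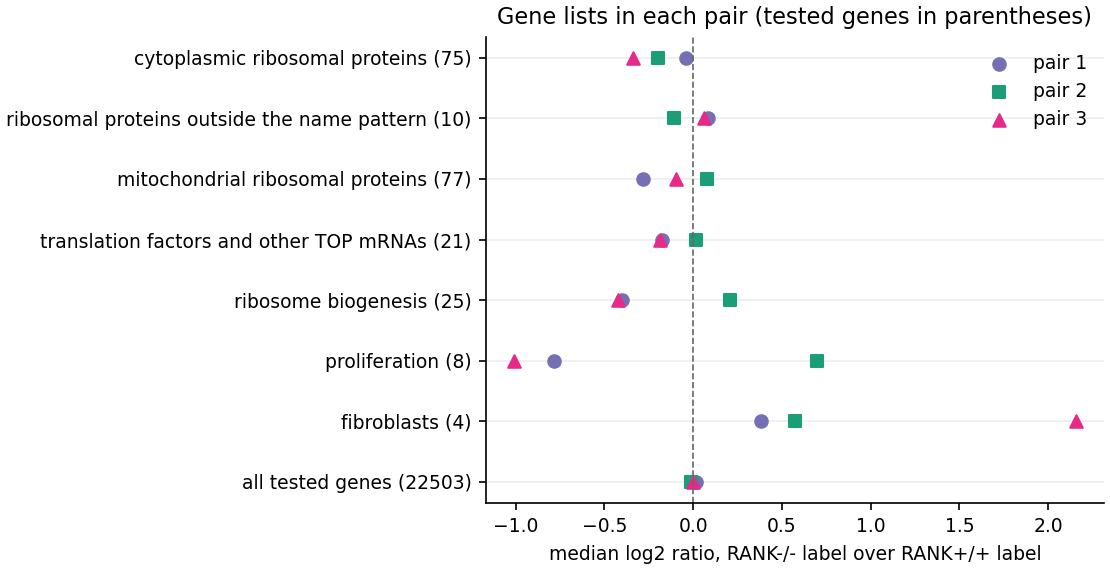
Median log2 ratio by label in each pair (symbols) for the cytoplasmic ribosomal proteins, related lists, 2 marker lists and all tested genes, with the number tested in parentheses. The cytoplasmic ribosomal proteins stay between -0.34 and -0.04, while the ribosome biogenesis and proliferation lists lie above 0 in pair 2 and below it in pairs 1 and 3.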

How the data were processed

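Sorted CD45- tumor cells were measured on 6 arrays (n = 3 pairs of RNAs, 2 technical arrays each). The authors extracted spots with Feature Extraction 10.7.3.1. The deposited tables give median spot and background intensity per channel without normalization, and processed intensity values corrected by that software. The deposited series table holds log2 ratios normalized by the authors and was an alternative, as were the processed values. Its direction is not stated. It was found from the scanner ratios, with which its values correlated at r = 0.825 to 0.858 when both ran as RANK-/- over RANK+/+. Mean signals were not used here.

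Median signals were corrected with normexp (offset 50), normalized by loess (span 0.3, 4 iterations) and Aquantile in limma 3.58.1 (R 4.3.3). Control and outlier spots had no weight in the loess fit and were removed after normalization. No spot was saturated (0). Ratios were turned to RANK-/- over RANK+/+ by the dyes in the labels, and arrays A and B were averaged. The filter kept probes that Feature Extraction called well above background for the same genotype, on arrays A and B alike, in 2 pairs or more (30230 of 55681 gene probes), and the brightest probe stood for a gene. Symbols were matched by accession to RefSeq (GRCm38.p6) for 28026 probes. The grid of the array names another build, so no gene coordinates are given, and windows at transcript starts carry the coordinates of the RefSeq table.

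limma's moderated test on the 3 pair ratios and a rank product, with p from the gamma distribution, ran over all tested genes with Benjamini-Hochberg adjustment. The number of arrays limits the precision, and all arrays lay on 1 slide with 1 scan date, so neither could be tested as a batch. The pairing is that of RNAs sharing an array. Scripts were tested on simulated data.

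Members named in the text were the 5 highest and 5 lowest means with the same sign in all pairs, the 3 largest SDs, genes chosen for their roles, and genes whose probes lay on both sides of 0. No member was above 0 in all pairs, so the highest means were not filled, and some genes that the rule names are not reported here. Rpl31, Rps18, Rpl36a and Rpl39, and genes of other lists, were named after their values were seen. The members and lists were chosen with earlier results of these data known. Alternatives covered background, normalization, filter, probes, technical arrays, dye, pairing and left-out pairs.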

Additional observations from a re-analysis of the deposited data

How the results depend on the processing

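The members' median (-0.22) and its difference from all genes stayed below 0 under every alternative run, and 0 members were called under all but 1. With median centering the median was -0.72 and -0.58 relative to all genes, the largest moves. Counting the 6 arrays as separate replicates, which treats technical arrays as RNAs, called 1 member and 298 genes, and the pair as a random block called 0 members and 13 genes. Without the replicate block, with channels as separate samples, 0 members and 0 genes were called. The deviations of the 2 RNAs of a pair correlated at -0.03, -0.22 and -0.04, so the numbers do not pair samples beyond the shared array. The count of members with the same sign in all pairs (29) was 16 with the processed signals (3 above and 13 below 0), and without each pair in turn it ran from 30 to 66, the highest without pair 1 (61 below and 5 above 0). Fewer pairs make a shared sign easier, and the share of all genes with one sign was 19.6% over 3 pairs and 48.4%, 55.4% and 35.4% without pairs 1, 2 and 3, against 38.7%, 88.0%, 49.3% and 40.0% of the members. The causes were not tested.

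Of the 270 values of the 27 named members under alternatives, 251 kept their sign and 19, in 10 members, changed it. Rpl31 was -0.30 with median centering and -0.011 as the mean over its probes. With the processed signals Rpl24 was 0.0752, Rplp1 0.0391, Rpl11 0.014, Rpl36 0.00902 and Rpl8 0.0928. Rpl8 was 0.0489 in the table of the authors and 0.00903 as the mean over its probes. With a dye term Rps14 was 0.0842 and Rpl24 0.13. With each pair left out in turn, the mean ran from -0.96 to 0.0921 in Rps14, from -0.67 to 0.26 in Rpl24, from -0.49 to 0.13 in Rpl10, from -0.31 to 0.0466 in Rpl36, from -0.74 to 0.0218 in Rpl37a and from -0.30 to 0.00207 in Rps6, against -0.53 to -0.51 in Rps12 and -0.31 to -0.17 for the members' median. Pair 2 or pair 3 was the one left out where the sign changed.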
